A study of Rattus norvegicus with 5 samples.

Results

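The genes of the calcitonin gene-related peptide (CGRP) and adrenomedullin system were examined in RNA from cultured rat sensory ganglia. The 9 members were listed by symbol: the peptide genes Calca, Calcb and Adm, the receptor genes Calcrl and Calcr, the receptor partners Ramp1, Ramp2 and Ramp3, and the accessory gene Crcp. All 9 were found among the 33014 genes of the combined table. The cells were dissociated from dorsal root ganglia of wild-type Sprague Dawley rats at postnatal day 10, from a litter of 10 pups, and plated at 5000 cells per well. They received PBS, a saline vehicle, after 1 day and were lysed after 8 days of culture, with 3 wells pooled for each of 5 libraries. All 5 libraries carry these same labels, so they form 1 group with no contrast between conditions. The labels do not say that the libraries came from separate animals or cultures, so the variation behind every p-value is that among these libraries and may be purely technical.

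CGRP is a vasodilator peptide released by peptidergic nociceptors, the pain-sensing neurons that also make substance P, and it is a target of migraine drugs. The Calca primary transcript is spliced to calcitonin in thyroid C cells and to alpha-CGRP in neurons, while Calcb encodes beta-CGRP. Calcrl, the calcitonin receptor-like receptor, needs a RAMP (receptor activity-modifying protein) to work: with Ramp1 it forms the CGRP receptor, and with Ramp2 or Ramp3 an adrenomedullin receptor. These receptors signal mainly through the stimulatory G protein to cyclic AMP.

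Markers of sensory neurons (6 of 6), glia (6 of 6), fibroblasts (6 of 6) and macrophages (6 of 6) were above 1 TPM, as were 56% of all 24485 genes tested. TPM, the usual length-normalised level of a transcript, is the estimated reads per effective length, scaled to 1000000 per library. Markers of the vessel lining were mixed, with 3 of 8 endothelial genes above 1 TPM. These were Cdh5 at 18.6, Tek at 4.90 and Tie1 at 1.87 TPM, whereas Pecam1, Kdr, Cldn5 and Vwf were the 4 below it. Libraries held between 21596608 and 27913098 estimated reads. In these bulk libraries, fewer cells of a type and less RNA per cell cannot be told apart.

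One stretch of sequence is shown for Calca, the member of highest level, because its promoter is known to respond to cyclic AMP, the messenger of the CGRP receptor. The bases lie upstream of the gene at chr1:178317589-178317779 of the RefSeq GRCr8 table (minus strand, written 5′ to 3′ along the gene), and capitals mark TGACG, the core letters of a cyclic AMP response element.
Calca: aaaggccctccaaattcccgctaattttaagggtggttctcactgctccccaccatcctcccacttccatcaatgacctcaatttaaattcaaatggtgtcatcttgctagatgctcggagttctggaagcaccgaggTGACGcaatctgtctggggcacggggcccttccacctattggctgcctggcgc
The capitals begin 112 bases before the start site listed with the promoter sequences. The window ends 60 bases before that site, at the edge of the gene's span in the GRCr8 table. TGACG or its reverse complement CGTCA occurs in windows of the same 191 bases for 12.6% of 33469 promoters, so the match is a description and was not tested against the data. Of the 7 members with a promoter in the table, Calca and Calcr hold it.

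Of the 9 members, 8 were above 1 TPM and Calcr was below it. The test set each gene's log2(TPM + 0.1) against 1 TPM with limma over 24485 genes, of which 56% were called above and 39.6% below. The members' median level was 17.6 TPM, against 3.05 TPM for all genes tested. By mean TPM the order was Calca, Crcp, Ramp2, Adm, Ramp3, Ramp1, Calcb, Calcrl and Calcr.

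**Figure D1:**
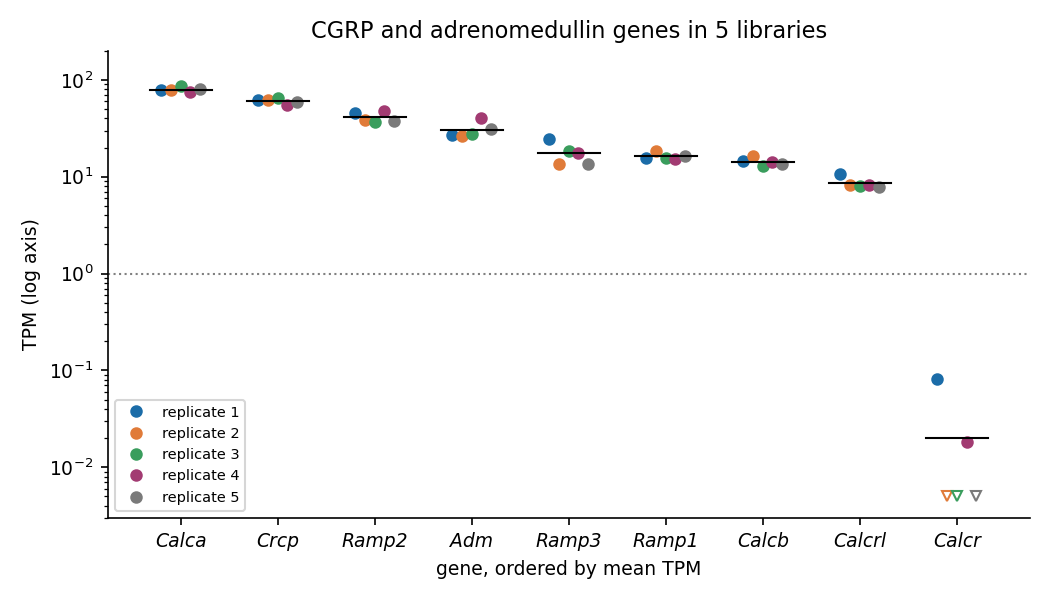
TPM of the 9 genes on a log axis, with 1 point per library (open triangles stand for libraries at 0, placed at the foot of the axis), a black line at the mean and a dotted line at 1 TPM. Calca lies between 74.9 and 85.9 TPM, and Calcr has values above 0 in replicates 1 and 4 alone.

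Neighbours in this order were mostly apart. Calca exceeded Crcp in 5 of 5 libraries with no overlap, and Crcp exceeded Ramp2 likewise. Ramp2 and Adm overlapped in range, though Ramp2 was higher in 5 of 5 libraries (log2 difference 0.44 ± 0.23, SD, n = 5). Ramp3 and Ramp1 did not differ beyond their spread, with Ramp3 higher in 3 of 5 libraries (log2 difference 0.08 ± 0.45). Ramp1 exceeded Calcb by 0.18 ± 0.08 on the log2 scale in 5 of 5 libraries, and their ranges overlapped. This order includes transcripts of Crcp, Ramp2 and Ramp3 that the GRCr8 table does not name. Without them, the log2 differences from Calca were -1.14 for Crcp, -1.25 for Ramp2 and -3.10 for Ramp3. Crcp and Ramp2 then lay closer together, and Ramp3 lay below Ramp1 (-2.28) and Calcb (-2.46).

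Calca was the most highly expressed member. Its level was 77.8, 77.8, 85.9, 74.9 and 80.1 TPM in replicates 1 to 5, or 79.3 ± 4.13 TPM (SD, n = 5). Replicate 3 was highest, and 748 to 896 estimated reads backed the value in each library. The coefficient of variation, 5.21%, was above that of 76.7% of the 1000 genes nearest in mean TPM, whose median was 3.72%. Calca was 6.17 ± 0.07 above 1 TPM on the log2 scale (limma adjusted p = 5.52e-10).

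Calcb, the beta-CGRP gene, stood well under Calca. It was at 14.4, 16.6, 13.0, 14.2 and 13.6 TPM, a mean of 14.3 ± 1.36 TPM, with replicate 2 highest. The level of Calcb was 0.182 ± 0.023 of that of Calca, and every library lay between 0.151 and 0.213. On the log2 scale the difference was -2.46 ± 0.18 (limma adjusted p = 2.75e-07), lower in 5 of 5 libraries. All 8 other members were called lower than Calca, where 90.1% of all genes were lower and 8.24% higher. Calca and Calcb are related in sequence and lie next to each other in the GRCr8 gene table, and reads that both could yield were divided by the authors' model.

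The Calca reads were divided almost wholly between a pair of long transcripts. NM_001033956.1, of 967 bases, was at 38.9, 41.3, 48.0, 43.1 and 43.2 TPM and held 54.1% ± 2.87 of the gene's TPM. NM_001033955.1, of 991 bases, was at 38.6, 35.2, 37.6, 31.1 and 36.1 TPM and held 45.1% ± 2.97. Their estimated shares were nearly equal in replicate 1 and furthest apart in replicate 4, where they were 57.5% and 41.6%. Reads that both of these transcripts could yield were divided by the authors' model, so the shares are estimates. The shortest form, NM_017338.2 of 666 bases, was at 0 in replicates 1 and 2 and reached 0.407 TPM at most, a mean share of 0.212%. XM_008759676.3, of 902 bases, held 0.640% ± 0.618. Which of these transcripts encode calcitonin and which encode CGRP is not given in the sources used here, so no level is given for either product.

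**Figure D2:**
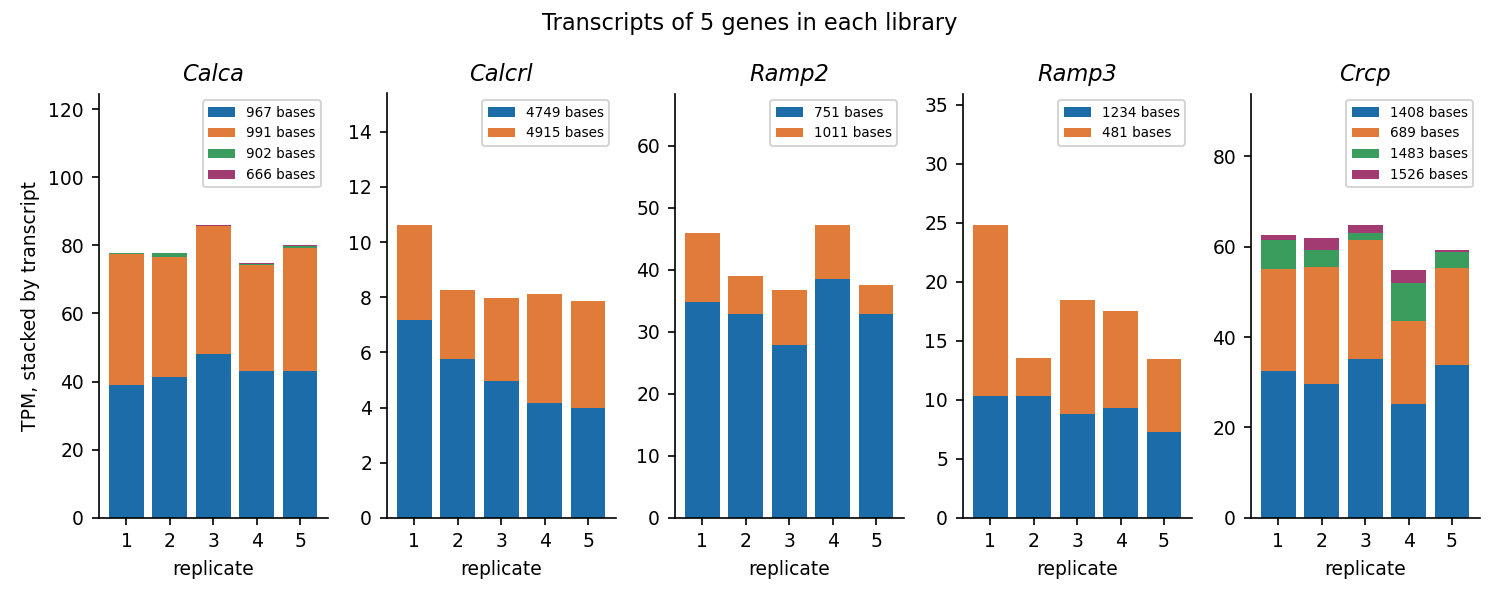
TPM of each transcript, stacked by library, for Calca, Calcrl, Ramp2, Ramp3 and Crcp, with transcripts told apart by their length in bases and a separate linear axis from 0 for each gene. The 481-base transcript of Ramp3 runs from 3.22 TPM in replicate 2 to 14.5 TPM in replicate 1, while the 1234-base transcript stays between 7.32 and 10.3 TPM.

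Adm, which encodes the vasodilator adrenomedullin, varied between libraries more than either CGRP gene. It was at 26.8, 26.6, 27.4, 40.5 and 31.4 TPM, a mean of 30.5 ± 5.90 TPM from a single transcript. Replicate 4 was highest, replicate 5 next, and the other 3 lay within 1 TPM of each other. Its coefficient of variation of 19.3% was above that of 99.5% of the 1000 genes nearest in mean TPM, whose median was 4.46%. Its edgeR estimate of spread (the biological coefficient of variation, BCV) was 0.148, against 0.132 for Calcb and 0.0575 for Calca. The BCV of Adm fell to 0.0866 without replicate 4. Adm lay below Calca in 5 of 5 libraries, with a log2 difference of -1.39 ± 0.30 (limma adjusted p = 4.64e-05), or -0.70 as CPM (reads scaled by library size alone).

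Adm is a known target of the hypoxia-inducible factors, and a list of 10 other such genes was drawn up after the values of Adm were seen. In 9 of the 10, replicate 4 was the highest library, as it was for 11.1% of the 9425 genes with a mean of at least 10 TPM. The list was chosen with values of these data known, so this count is a description and was not tested. The exception was Ca9, at a mean of 0.765 TPM. Vegfa, the vascular growth factor, was at 353, 353, 353, 427 and 397 TPM. Egln3, an oxygen-sensing hydroxylase, was at 21.8, 22.96, 22.6, 29.8 and 27.7 TPM. Both shared with Adm the 2 highest libraries, replicates 4 and 5, but not every gene of the list did. Ankrd37, at 20.7, 19.9, 19.1, 22.5 and 18.8 TPM, was lowest in replicate 5. P4ha1 was nearly level, at 242, 250, 251, 253 and 251 TPM. The part of oxygen supply in the level of Adm was not tested.

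**Figure D3:**
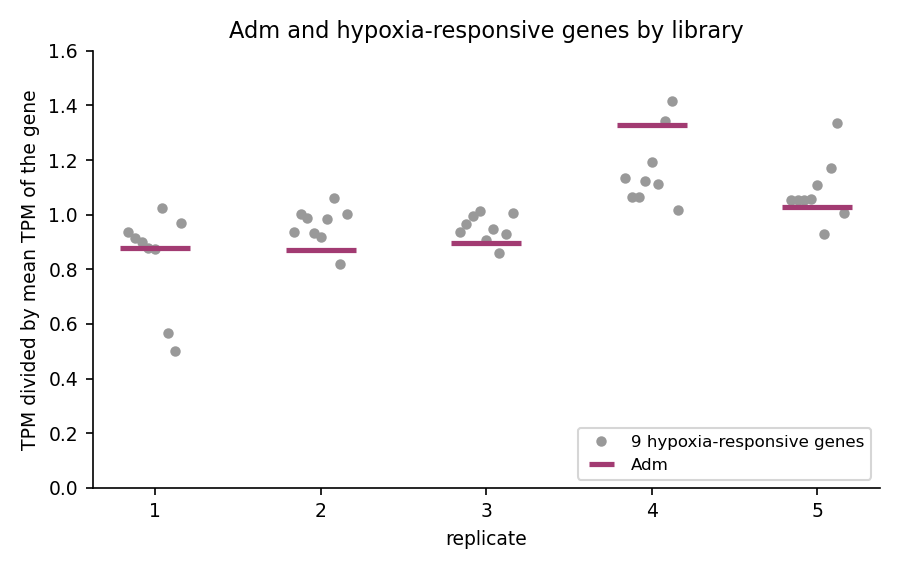
TPM in each library divided by the gene's mean TPM over the 5 libraries, for Adm (bars) and the 9 hypoxia-responsive genes with a mean of at least 10 TPM (grey points). Adm and all 9 have their highest value in replicate 4. Ca9, the gene of the list not shown, was highest in replicate 2. The list was drawn up after the values of Adm were seen.

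Calcrl, the shared receptor gene, was the lowest member above 1 TPM. It was at 10.6, 8.27, 7.96, 8.13 and 7.86 TPM, a mean of 8.57 ± 1.15 TPM, and was 2.97 ± 0.18 above 1 TPM on the log2 scale (limma adjusted p = 2.34e-07). Replicate 1 stood apart and the other 4 lay between 7.86 and 8.27 TPM. Its BCV was 0.107 and fell to 0.0598 without replicate 1. Calca exceeded Calcrl 9.21-fold (log2 difference 3.20 ± 0.21; limma adjusted p = 3.88e-08), and Calcb exceeded it 1.67-fold (0.74 ± 0.20; limma adjusted p = 0.000222). These folds are per transcript length: as CPM, Calca was above Calcrl by 0.50 on the log2 scale, and Calcb differed from it by -2.42, the opposite direction.

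The estimated makeup of Calcrl by transcript differed between libraries. Reads that both of its 2 transcripts could yield were divided by the authors' model. XM_006234439.4, of 4749 bases, held 67.5%, 69.5%, 62.4%, 51.3% and 50.8% of the gene's TPM, and NM_012717.2, of 4915 bases, the rest. The 4749-base form was at 7.16 TPM in replicate 1 and 4.00 TPM in replicate 5, whereas the 4915-base form lay between 2.52 and 3.96 TPM. Smooth muscle and mural markers also differed, with a summed level of 383, 365, 295, 298 and 215 TPM over 7 genes, 6 of them above 1 TPM. That sum, most of it from Acta2 and Tagln at means of 110 and 150 TPM, was highest in replicate 1 and lowest in replicate 5. Calcrl was also highest and lowest in these libraries, but over replicates 2 to 5 it lay between 7.86 and 8.27 TPM. The members of the list did not move as one. Acta2, Tagln and Myh11, 3 of the 7, were highest in replicate 1, as were 24.2% of the 9425 genes with a mean of at least 10 TPM. Pdgfrb, Cspg4 and Des were highest in replicate 2 and Rgs5 in replicate 5, and Pdgfrb was lowest in replicate 1, at 33.3 TPM. Endothelial markers summed to between 26.5 and 28.6 TPM over 8 genes, with none at 0 in every library. The part of either cell type in the level of Calcrl was not tested.

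Ramp1, the partner that makes Calcrl a CGRP receptor, was at about the level of Calcb. It was at 15.5, 18.3, 15.5, 15.3 and 16.5 TPM, a mean of 16.2 ± 1.25 TPM, with replicate 2 highest and 112 to 136 reads per library. Ramp1 exceeded Calcrl 1.89-fold (log2 difference 0.92 ± 0.23; limma adjusted p = 8.89e-05), higher in 5 of 5 libraries. NM_031645.1, of 810 bases, held 89.6% ± 3.93 of its TPM, and the 529-base XM_039084148.1 held the rest.

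Ramp2, a partner for adrenomedullin signalling, was the highest of the RAMP genes. It was at 45.9, 38.9, 36.8, 47.2 and 37.5 TPM, a mean of 41.3 ± 4.90 TPM, and replicates 4 and 1 stood above the other 3. Ramp2 exceeded Calcrl 4.78-fold (log2 difference 2.26 ± 0.16; limma adjusted p = 1.42e-07), and its level was 2.56 ± 0.431 times that of Ramp1 and 2.44 ± 0.479 times that of Ramp3, above 1 in every library. NM_031646.1, of 751 bases, held 81.0% ± 5.31 of its TPM. The rest equalled, to within 1e-05 TPM in each library, a transcript of 1011 bases that the GRCr8 table does not name, XM_039086717.1.

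Ramp3, the other adrenomedullin partner, had the widest spread of the 8 members above 1 TPM. It was at 24.8, 13.5, 18.4, 17.6 and 13.5 TPM, a mean of 17.6 ± 4.65 TPM and a coefficient of variation of 26.5%. That exceeded 99.5% of the 1000 genes nearest in level, whose median was 5.51%. The named transcript NM_020100.2, of 1234 bases, was at 10.3, 10.3, 8.80, 9.32 and 7.32 TPM. The remainder matched a 481-base transcript, XM_039092347.1, at 14.5, 3.22, 9.64, 8.25 and 6.14 TPM. This short form held 45.4% ± 13.1 of the gene's TPM but 17.9% ± 6.90 of its reads, that is between 10.9 and 53.0 reads per library, and its SD of 4.21 TPM compares with 1.24 TPM for the named transcript. Ramp3 exceeded Calcrl 2.00-fold (log2 difference 1.00 ± 0.24; limma adjusted p = 6.46e-05), and with the named transcript alone the difference was 0.10 (limma adjusted p = 0.342).

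**Figure D4:**
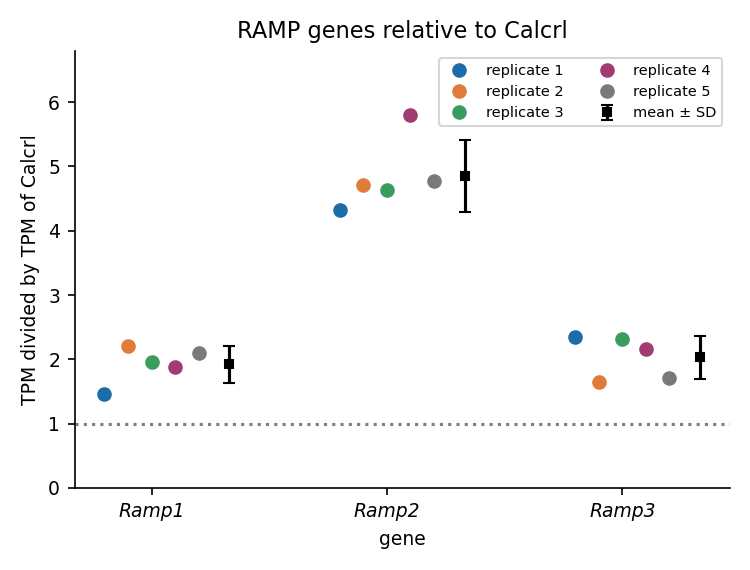
TPM of each RAMP gene divided by that of Calcrl in the same library, with 1 point per library, a square and bar for the mean and SD (n = 5) and a dotted line at 1. Ramp2 lies between 4.32 and 5.80, above every value of Ramp1 (1.46 to 2.21) and Ramp3 (1.64 to 2.34).

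Of the 8 other members, 7 were higher than Calcrl and Calcr was lower, where 38.1% of all genes were higher and 57.5% lower. These are levels per transcript length. Counted as CPM, all 3 RAMP genes lay below Calcrl, whose transcripts are several times longer, with differences of -2.19 for Ramp1, -0.84 for Ramp2 and -1.84 for Ramp3 on the log2 scale (matched transcripts included).

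Calcr, the calcitonin receptor, which with RAMPs also binds amylin, was close to absent from the reads. It had 4 reads in replicate 1, 1 in replicate 4 and 0 in the other 3 libraries, or 0.0824, 0.0182 and 0 TPM. All 5 reads were assigned to NM_001034015.1. Pooled over the libraries they gave 0.0212 TPM (exact Poisson 95% limits 0.00687 to 0.0494, counting error only). Calcr was below 1 TPM by limma (adjusted p = 4.41e-06).

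Crcp, whose product was described as a CGRP receptor component and is also a subunit of RNA polymerase III, was the second highest member. It was at 62.5, 61.9, 64.8, 54.8 and 59.2 TPM, a mean of 60.6 ± 3.81 TPM, with replicate 4 lowest. It lay below Calca by a log2 difference of -0.39 ± 0.06 (limma adjusted p = 0.000183), 1.31-fold. As CPM of the named transcripts the difference was -0.41 (limma adjusted p = 0.000401), and with the matched transcripts added, an alternative chosen after seeing the data, it was -0.04 (limma adjusted p = 0.405). As TPM of the named transcripts alone it was -1.14 (limma adjusted p = 1.91e-06). NM_053670.3, of 1408 bases, held 51.4% ± 4.52 of its TPM and XR_005491586.1, a non-coding form of 689 bases matched by the remainder, 37.6% ± 3.43. In the GRCr8 table the span of Crcp overlaps that of Asl, a urea cycle gene at 50.2 TPM. Whether their exons overlap was not examined, and the strand setting is not given in the sources used here. Whether these genes share reads is therefore not known, and the level of Crcp is uncertain to that extent.

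The spread of the members was not uniform. Of the 8 members with enough reads for edgeR, 6 had a BCV above the median of 12442 genes, 0.0769, and Crcp (0.0537) and Calca (0.0575) were below it. With no filter on low counts the median of 18874 genes was 0.164, and of the 9 members only Calcr lay above it. At like mean TPM, Ramp1 and Calca had coefficients of variation above 74.1% and 76.7% of genes. For Calcb, Calcrl and Crcp these shares were 82.3%, 84.7% and 85.4%, and for Ramp2 96.6%.

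The genes whose levels followed those of Calca, Calcrl and Ramp1 most closely over the 5 libraries were named by the smallest root mean square (RMS) difference of centred log2(TPM + 0.1), among 9425 genes with a mean of at least 10 TPM. For Calca they included Ddx6 and Map4k3, with RMS differences of 0.00979 and 0.00986. For Calcrl they were Thg1l (0.0336), the matrix metalloproteinase gene Mmp2 (0.0347) and Cdk2ap2 (0.0353). For Ramp1 they were Ttll12 (0.0113), the neuronal kinase gene Camk2b (0.0138) and Rpp25l (0.0172). With 5 libraries, likeness of this kind is a description of the values and no test was made.

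Of 46 other genes of the pathway found in the table, 45 were above 1 TPM and Iapp was below it, where 56% and 39.6% of all genes were so called, with a median level of 45.6 TPM. Peptide genes of the family were at 8.33 ± 0.894 TPM for Adm2 (intermedin, which acts through the same receptors) and 0.0302 ± 0.0295 TPM for Iapp, the amylin gene. Adm exceeded Adm2 by a factor of 3.68 ± 0.678, with every library between 2.85 and 4.56. Adm2 and Calcrl did not differ beyond the spread (log2 difference -0.04 ± 0.27; limma adjusted p = 0.776).

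Genes of peptide processing, among them a convertase inhibitor and a chaperone, had a median level of 113 TPM. All 6 were above 1 TPM, as were 56% of all genes tested. The highest were Pcsk1n, a convertase inhibitor, at 615 ± 41.7 TPM, Cpe, the carboxypeptidase that trims peptide ends, at 395 ± 7.89 TPM, and the prohormone convertase gene Pcsk1 at 141 ± 6.61 TPM. Pam, whose enzyme adds the terminal amide that CGRP and adrenomedullin need, was at 84.7 ± 3.76 TPM, a gene named outside the rule for this text. The lowest were Pcsk2 at 15.7 ± 1.23 TPM and Scg5, the chaperone of its product, at 45.4 ± 2.57 TPM. Peptide clearance genes were also above 1 TPM in 4 of 4 cases. They were led by Ece1, an endothelin-converting enzyme that degrades internalised CGRP, at 69.3 ± 1.95 TPM. Ide, a peptidase, was at 30.6 ± 0.701 TPM, Ackr3, a scavenger receptor that takes up adrenomedullin, at 18.7 ± 0.704 TPM, and Mme, which encodes neprilysin, at 7.12 ± 1.18 TPM.

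All 22 receptor signalling genes were above 1 TPM, as were 56% of all genes tested. Gnas, the stimulatory G protein alpha subunit, was at 1146 ± 24.0 TPM, Gnai2, an inhibitory one, at 472 ± 7.55 TPM and Prkar1a, a protein kinase A regulatory subunit, at 471 ± 11.2 TPM. The lowest were the adenylyl cyclase genes Adcy3 at 3.05 ± 0.257 TPM and Adcy9 at 3.28 ± 0.235 TPM. Splicing regulators known to act on Calca or on neuronal exons were above 1 TPM in 12 of 12 cases. Srsf3 was at 98.6 ± 3.62 TPM, Ptbp1, which is low in mature neurons, at 94.8 ± 4.78 TPM and Tial1 at 62.9 ± 2.31 TPM, while Elavl1 at 18.0 ± 1.28 TPM and the neuronal Rbfox3 at 29.3 ± 2.09 TPM were lowest. The libraries do not show which cells expressed these genes.

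**Figure D5:**
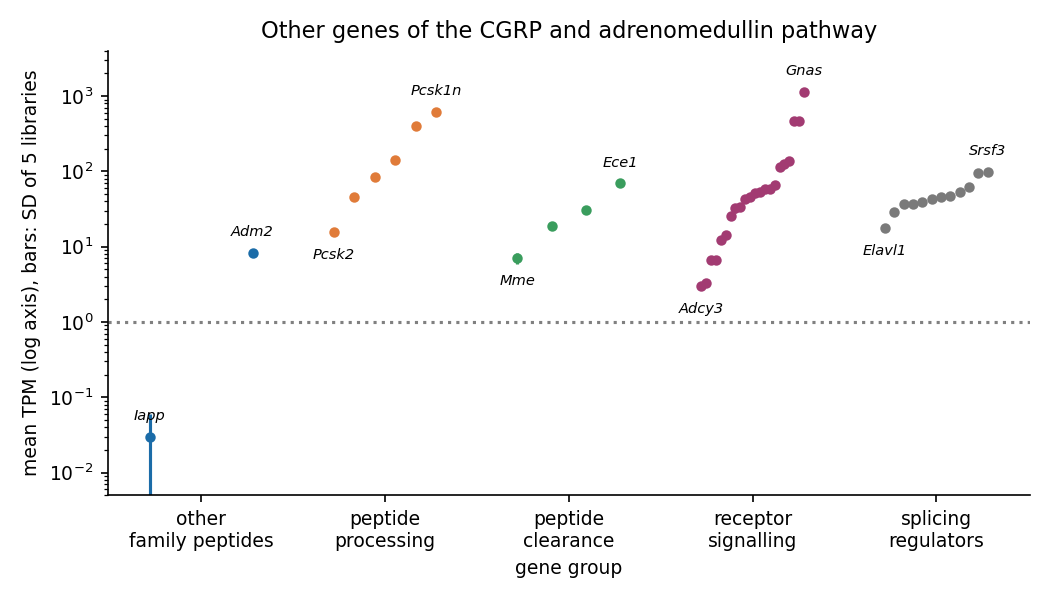
Mean TPM of the other pathway genes on a log axis, in 5 groups fixed from their roles, with bars for the SD over 5 libraries, a dotted line at 1 TPM and the lowest and highest gene of each group named. Gnas is highest at 1146 TPM, and Iapp alone lies below 1 TPM, with a lower bar that runs past the foot of the axis.

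Thyroid C cells, the known source of calcitonin, were scarcely marked: of 4 marker genes only Chga, which neurons also express, was above 1 TPM, and Nkx2-1 was at 0 in every library. Markers of peptidergic nociceptors were above 1 TPM in 4 of 4 cases, as were 56% of all genes tested, and summed to between 226 and 232 TPM.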

How the data were processed

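RNA of 5 libraries was made with poly-A selection, per the labels' protocols. The submitters' processing notes list Trim Galore 0.6.6, cutadapt 2.8, Salmon 1.5.1 and the build mRatBN7.2; no source used here gives the strand setting. The authors deposited a table of gene-level TPM and files with TPM and estimated counts for 98811 transcripts in each library, per the file headers. Estimated counts were rounded before edgeR. A RefSeq table of GRCr8 named 67330 transcripts (68.1%). Unnamed transcripts of Ramp2, Ramp3 and Crcp were found as the transcript or pair whose TPM equals the gene's remainder.

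Levels against 1 TPM and within-library ratios to Calca and Calcrl were tested on log2(TPM + 0.1) with limma 3.58.1 (intercept only, genes at 0 in every library left out, two-sided, Benjamini-Hochberg over all genes, threshold 0.05). Values are on that scale, which understates differences of low genes. The exact sign-flip test over 5 libraries cannot go below p = 0.0625, so it was not used. BCV came from edgeR 4.0.16 (TMM, filterByExpr). Fits were tested on simulated data. The text names all members, the 3 highest and up to 2 lowest genes of each pathway group, and the 3 genes most like Calca, Calcrl and Ramp1; others were chosen after their values were seen, and some genes that the rule selects are left out here. Members and lists were chosen with earlier results of these data known. Alternatives covered pseudocounts, filters, thresholds, scaling (edgeR TMM factors, DESeq2 1.42.0 size factors), transcript sums, CPM and leaving out each library. No pair of libraries agreed within sampling noise. Read intervals cover counting error only.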

Additional observations from a re-analysis of the deposited data

Results flagged for a closer look

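The highest library of Calcrl stood apart from the other 4. Replicate 1 was at 10.6 TPM, against 7.86 to 8.27 TPM, and the gap to its neighbour was 0.853 of the whole range, above the limit of 0.71 for 5 samples. For Calcr, replicate 1 was at 0.0824 TPM, from 4 reads, against 0 to 0.0182 TPM, a gap of 0.778 of the range. Chance alone sets apart about 1 in 20 such groups of values, and 29 were examined.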

How the results depend on the processing

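Under the alternatives tried, most results (694 single-gene and 252 summary values) kept direction and side of the threshold or size. Of the other single-gene values, 10 changed direction, 3 lost their call and 2 moved in size, and 27 summary values moved. Many single-gene values are levels far above 1 TPM, which these alternatives could hardly carry across it. Length normalization decided the comparison with Calcrl: as CPM of named transcripts, 1 member was higher and 5 lower than Calcrl (Calcr -7.54, Calcb -2.42, Ramp1 -2.19, Ramp2 -1.29 and Ramp3 -2.12 on the log2 scale), while Adm at -0.20 and Crcp at 0.09 were not called (limma adjusted p = 0.226 and 0.352). With the matched transcripts added, an alternative chosen after seeing the data, 2 were higher and the same 5 lower (Ramp2 -0.84 and Ramp3 -1.84, the others as before), and Adm was again at -0.20. CPM gave 4653 genes higher than Calca and 13478 lower (13477 with matched transcripts), against 2018 and 22057, and 5633 or 5634 higher than Calcrl, against 9340. Transcript length enters these values. A filter at a mean of 0.1 TPM removed Calcr and Iapp, leaving 0 members and 0 pathway genes below 1 TPM and 0 members below Calcrl; it left 4185 genes below 1 TPM and 8601 below Calcrl, against 9684 and 14076. With no filter these were 18080 and 22652. Named transcript sums also left 0 pathway genes below 1 TPM, where the named Iapp transcript was at 0. As shares of reads, the main transcripts of Ramp1, Ramp2, Ramp3 and Crcp held 94.4%, 73.2%, 82.1% and 66.7%, and the others 5.63%, 26.8%, 17.9% and, for the 689-base Crcp form, 18.3%. With no filter, 1 of 9 members (Calcr) lay above the median dispersion, against 6 of 8. Leaving out any library kept 8 members above 1 TPM, 8 below Calca and 7 above Calcrl. No paired analysis was possible because all libraries form 1 group. Depth limits Calcr (5 reads) and the short Ramp3 transcript.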

Other observations

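For members outside the rule above, the genes of most similar pattern over the 5 libraries were chosen after their values were seen. For Adm, which was highest in replicate 4, they were the matrix proteoglycan gene Lum (RMS difference 0.0786), the water channel gene Aqp1 (0.0873) and the imprinted RNA H19 (0.0876), and H19 stood at 628, 661, 689, 857 and 748 TPM. For Ramp2 they were Arl16 (0.0279), Ephx1 (0.0417) and the collagen receptor gene Mrc2 (0.0467). For Calcb they were the matrix gene Vcan (0.0191), Wdr55 (0.0192) and Gpx7 (0.0272). For Ramp3 the nearest gene, Clic2, was at an RMS difference of 0.137, against 0.326 for the spread of Ramp3 about its own mean.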
